A study of Catharanthus roseus with 35 samples.

Results

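The second leaf pair from the shoot apex of flowering Catharanthus roseus plants, cultivar Little Bright Eye, was compared between plants grown outdoors and plants grown indoors. The comparison holds 6 of the 35 libraries of the series, taken by their labels alone, with 3 libraries per growth condition, and it covers all 35722 genes of the count files. Indoor plants were kept in a growth chamber at 25 °C with 16 h of fluorescent light at 70 µmol m-2 s-1, whereas outdoor plants of the same cultivar stood in a south-oriented place and had been in direct sunlight for months when leaves were taken on a hot, sunny afternoon. Light, temperature and every other part of the outdoor setting changed together, so that their effects cannot be told apart. Leaves were freed of their central veins and the RNA was sequenced as full-length cDNA on a Nanopore MinION device, each library being labelled a separate biological replicate. No gene was deleted or added in either group, and outdoor and indoor plants were different individuals.

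C. roseus leaves make monoterpene indole alkaloids (MIAs), among them the anticancer drug vinblastine, by a pathway that is spread over several cell types. Iridoid precursors begin in the internal phloem-associated parenchyma, the epidermis makes secologanin and joins it to tryptamine as strictosidine, and the last steps towards vindoline take place in idioblasts and laticifers, from where vindoline and catharanthine can be coupled into the precursor of vinblastine. Leaves moved into full sun are known to adjust photosynthesis, to dissipate excess light and to make protective proteins and phenolics.

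The libraries held 85976 to 549018 estimated counts. Indoors replicate 1 was the shallowest, with 9797 genes detected against 12914 to 14395 in the other 5 libraries, and 1 read in it equalled 9.66 CPM (counts per 1e6 reads of the library total after TMM scaling, the trimmed mean of M values), against 1.98 to 3.44 CPM elsewhere. Of all genes, 5641 had enough reads to be tested, and these held 94.1% of the reads of the 6 libraries. Across the tested genes, Pearson correlations of log2(CPM + 10) were 0.856 to 0.944 among indoor libraries, 0.883 to 0.927 among outdoor libraries and 0.747 to 0.878 between the conditions. No replicate was a copy of another, since pairs of replicates differed by 2.65 to 4.96 chi-square units per degree of freedom, where sampling noise alone gives about 1. Reads from leaf cells were found, a Rubisco activase gene (CATHA_702), the idioblast marker DAT and the epidermal gene LAMT each detected in at least 5 of the 6 libraries. Where p-values are given, they measure the spread between labelled replicates. For leaf pair 2 that spread was estimated jointly over the 12 libraries of leaf pairs 2 and 3, unless another fit is named.

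Outdoors, 339 genes were higher and 236 were lower than indoors in leaf pair 2, called where edgeR's quasi-likelihood test gave a Benjamini-Hochberg adjusted p no greater than 0.05 and the log2 fold change (FC) reached 1 or -1. These are 6.01% and 4.18% of the genes tested, 10.2% in all. The median log2 FC was 1.599 among the higher genes and -1.47 among the lower ones, and 86 genes rose and 49 fell by a log2 FC of 2 or more. With no minimum fold change, 405 genes (7.18%) were higher and 292 (5.18%) lower. In 314 of the 339 higher genes every outdoor library lay above every indoor library, a pattern shown by 15.1% of all tested genes, and in 218 of the 236 lower genes every outdoor library lay below, shown by 13.8%. Over all tested genes the median log2 FC was -0.004, so that rises and falls are relative to a common level that did not move under the TMM scaling. With library totals alone that median was -0.13, and the share of calls that were rises went from 59.0% to 43.1% (231 higher, 305 lower).

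**Figure D1:**
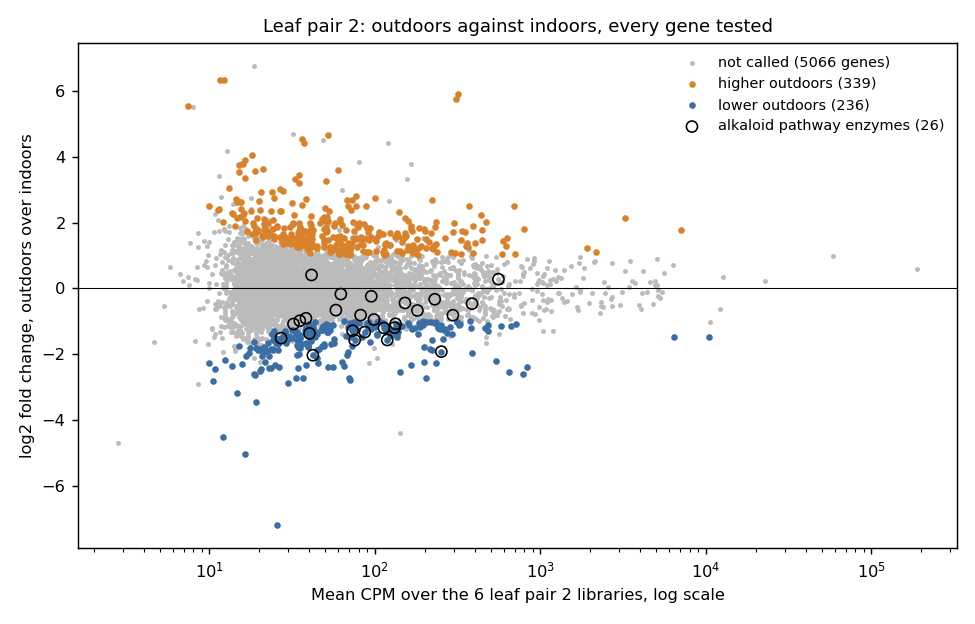
Each point is 1 of the 5641 genes tested in leaf pair 2, with its mean CPM over the 6 libraries (log axis) and its log2 FC of outdoors over indoors. The 339 genes called higher lie above 0 and the 236 called lower below it, and 24 of the 26 circled alkaloid pathway enzymes lie below 0.

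The alkaloid pathway genes that were called were all lower outdoors, and the larger share of those tested were not called. Of 34 enzymes on the path to vinblastine, 33 were matched to counts and 26 were tested, and of these 11 fell, 0 rose and 15 were not called, IS and TS passing on adjusted p alone. That is 42.3% lower against 4.18% of all tested genes, with a median log2 FC of -0.97 against -0.004. In whole leaves, fewer cells of a type and less of a transcript per cell cannot be told apart, which holds for every change given here. Over all 74 MIA genes listed, branch enzymes, transporters and regulators included, 37 were tested, 11 fell and 0 rose in edgeR's test.

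In the iridoid part, 5 of 10 tested genes fell and the median log2 FC was -1.07. LAMT (CATHA_3427), the loganic acid methyltransferase that makes loganin, stood at 242, 164 and 135 CPM in the 3 indoor libraries and at 48.1, 75.1 and 47.4 CPM outdoors. Every outdoor library was below every indoor one, and the log2 FC was -1.57 ± 0.33 (SE, n = 3 and 3, adjusted p = 0.00195 in edgeR's test). G8H (CATHA_31154), the cytochrome P450 that hydroxylates geraniol at the start of the iridoid route, had 184, 96.3 and 101 CPM indoors and 55.0, 35.3 and 49.4 CPM outdoors. It too was separated between the conditions, by a log2 FC of -1.33 ± 0.33 (edgeR adjusted p = 0.00709), with indoors replicate 1 the highest library.

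The secologanin synthases, P450 enzymes that open the ring of loganin, did not all change alike. SLS2 (CATHA_8640) went from 106, 114 and 120 CPM indoors to 24.05, 42.0 and 45.5 CPM outdoors, and SLS1 (CATHA_8659) from 290, 136 and 139 to 61.8, 86.2 and 75.1 CPM, both without overlap. Their log2 FC were -1.58 ± 0.33 (edgeR adjusted p = 0.0019) and -1.20 ± 0.33 (0.0164), and that of SLS4 (CATHA_12635) was -1.37 ± 0.41 (0.0251). SLS3 (CATHA_8656) overlapped between the conditions at 94.3 to 112 CPM indoors and 61.8 to 121 CPM outdoors, with a log2 FC of -0.24 ± 0.30 (edgeR adjusted p = 0.671). The difference between SLS3 and the other 3 was not tested, and because these genes are close copies, the estimated counts may share reads among them. Iridoid synthase IS (CATHA_28216), which cyclises the monoterpene into an iridoid, had a log2 FC of -0.95 ± 0.32 that passed on adjusted p (0.0471) and not on fold, with all outdoor libraries (49.4 to 85.9 CPM) below the indoor ones (97.1 to 184). Iridoid oxidase IO had -0.81 (edgeR adjusted p = 0.124), 8HGO -0.91 (0.236) and 7DLH 0.41 (0.536). The glucosyltransferase 7DLGT had 2 to 8 reads per library and was not tested.

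Both tested genes of strictosidine formation were called lower. TDC (CATHA_23616), the decarboxylase that turns tryptophan into tryptamine, had 135, 110 and 73.9 CPM indoors and 30.9, 42.0 and 47.4 CPM outdoors. The 2 sets did not overlap and the log2 FC was -1.29 ± 0.35 (edgeR adjusted p = 0.015). STR (CATHA_23617), strictosidine synthase, had 0, 31 and 23 reads indoors and 7, 9 and 4 reads outdoors. The shallow indoor library held no STR read, so the conditions overlap, and the log2 FC of -1.51 ± 0.47 (edgeR adjusted p = 0.0326) rests on the other 2 indoor libraries. Strictosidine glucosidase SGD, with 8 reads in a single indoor library and 3 in a single outdoor one, and the anthranilate synthase subunit ASα, with 17 and 12 reads, were too low to be tested.

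Of the central steps, from strictosidine aglycone to catharanthine and tabersonine, 2 of 6 tested genes fell and the median log2 FC was -0.95. CS (CATHA_36896), catharanthine synthase, had 44, 216 and 160 reads indoors and 34, 54 and 40 outdoors, which is 425, 433 and 338 CPM against 117, 119 and 79.1 CPM. Every outdoor library was far below the indoor ones, with a log2 FC of -1.92 ± 0.37 (edgeR adjusted p = 0.00192). TS (CATHA_9458), which forms tabersonine, the precursor of vindoline, from the same intermediate, stood at 522, 383 and 243 CPM indoors and 199, 212 and 215 CPM outdoors. Its log2 FC of -0.82 ± 0.27 passed on adjusted p (0.0402) but not on fold, although all 3 outdoor libraries were below the indoor ones. Redox2 (CATHA_30555), a reductase on the way to stemmadenine, had 193, 160 and 129 CPM indoors and 41.2, 97.2 and 59.3 outdoors and fell by a log2 FC of -1.20 ± 0.29 (edgeR adjusted p = 0.00649). Redox1 (CATHA_27470) had 580, 385 and 393 against 306, 360 and 293 CPM and was not called (log2 FC -0.47 ± 0.24, edgeR adjusted p = 0.215), and neither were GS1 (-0.67, 0.134) and the stemmadenine acetyltransferase SAT (-1.08, 0.08). GS2, PAS and DPAS were below the filter, and GO was not analysed here.

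Of the late genes leading to vindoline and its coupling, 2 of 8 tested fell and the median log2 FC was -0.55. PRX1 (CATHA_38736), the vacuolar peroxidase thought to couple catharanthine and vindoline, had 67.6, 50.1 and 84.4 CPM indoors and 24.05, 8.84 and 17.8 CPM outdoors. It fell by a log2 FC of -2.03 ± 0.44 (edgeR adjusted p = 0.00219) with no overlap. The methyltransferase gene 16OMT (CATHA_9745) had 203, 193 and 150 CPM indoors and 82.5, 106 and 65.2 outdoors, a log2 FC of -1.08 ± 0.30 (edgeR adjusted p = 0.0153). For the steps nearest to vindoline no call was made. T3R (CATHA_22634), a reductase of the tabersonine branch, had 512, 541 and 458 CPM indoors and 625, 689 and 518 outdoors (log2 FC 0.28 ± 0.25, 0.523), 16NMT (CATHA_10435) 222 to 275 against 168 to 241 CPM (-0.33 ± 0.25, 0.418), and the hydroxylase D4H (CATHA_25357) 222, 164 and 143 against 175, 110.5 and 94.9 CPM (-0.44 ± 0.28, edgeR adjusted p = 0.33). DAT (CATHA_18617), the last enzyme of vindoline synthesis, had 58.0, 86.2 and 65.4 CPM indoors and 51.5, 39.8 and 47.4 CPM outdoors (-0.66 ± 0.33, 0.204). T16H2 and T3O were not called either, and T16H1 had 1 read in all 6 libraries.

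**Figure D2:**
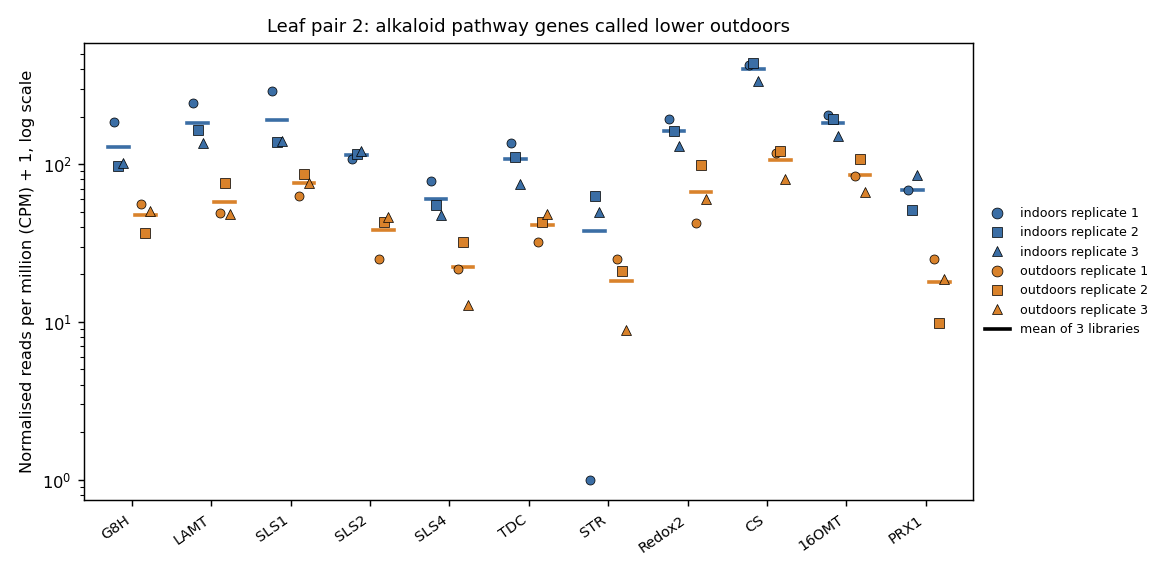
CPM + 1 (log axis) of the 11 alkaloid pathway genes called lower outdoors, in pathway order, with 1 symbol per library and a bar at the mean of 3 libraries. Outdoor symbols lie below all indoor symbols of the same gene for every gene but STR, whose indoors replicate 1 has 0 reads.

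Branch enzymes, transporters and regulators showed no call in either direction in edgeR's test as described. Among 4 tested of 15 branch enzymes the median log2 FC was -0.07, the largest fall being THAS2 (CATHA_12149), a tetrahydroalstonine synthase, at 106, 120 and 127 CPM indoors and 61.8, 81.7 and 85.0 outdoors (-0.63 ± 0.27, edgeR adjusted p = 0.128). THAS3 (CATHA_12627) had a log2 FC of 0.44 ± 0.31 (0.391) and VAS (CATHA_11674) one of -0.13 ± 0.33 (0.858), with indoor and outdoor libraries overlapping in both. The hydrolase-like gene HL3 was too low to test, with 2, 8 and 4 reads indoors and 0 in every outdoor library, which makes it at least 5.42-fold lower outdoors if the outdoor group is set at a floor of 3 reads. It was called lower with no low-count filter. Transporters had 3 of 7 members tested, CrMATE1 (CATHA_23615) at -0.30 ± 0.35 (0.64), CrMATE2 (CATHA_34738) at -1.09 ± 0.60 (0.255) and CrNPF2.9 (CATHA_5191), the vacuolar exporter of strictosidine, at 0.22 ± 0.47 (0.827). Of 18 regulators only 4 were tested. CrGATA1 (CATHA_32535), a light-linked activator of vindoline genes, had a log2 FC of 0.65 ± 0.42 (0.348), PIF1 (CATHA_15892), a phytochrome-interacting factor, -0.60 ± 0.51 (0.485), and ZCT3 (CATHA_28203), a zinc finger repressor, 0.15 ± 0.58 (0.912). The remaining tested regulator had the largest log2 FC of the list, 1.06, and was not called. The ORCA regulators had at most 9 reads in any library, so that their change was not detectable at this depth.

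Lists of cell type markers moved as the pathway genes in them did. Of 8 epidermal genes, which also stand in the iridoid or indole lists, 7 were tested and 6 fell, against 4.18% of all tested genes. Their summed level was 675 to 957 CPM in the indoor libraries and 271 to 378 CPM in the outdoor ones. Of 6 genes of the internal phloem-associated parenchyma, all of them in the iridoid list too, 5 were tested and G8H alone fell. Their sums were 371 to 589 CPM indoors and 203 to 330 CPM outdoors. Both marker lists thus repeat pathway genes already given. Idioblast lists held few calls. Among the 25 genes most enriched in idioblasts 10 were tested and edgeR called 0, with a median log2 FC of -0.61 and overlapping sums of 2368 to 3018 CPM indoors and 1955 to 2512 outdoors, and among the 25 most expressed in idioblasts 15 were tested, 1 rose (CATHA_16221), 1 fell (CATHA_15979), and sums were 7025 to 8922 and 7105 to 8921 CPM. In the first list 9 of the 10 tested genes had a negative log2 FC, against 2830 of all 5641 tested genes. The abscisic stress-ripening gene CATHA_18760, which edgeR held just under the fold threshold, was called higher by DESeq2, limma voom and some other alternatives. The phytocyanin gene CATHA_22670 (edgeR log2 FC -1.56, adjusted p = 0.0587) was called lower by limma voom, with upper quartile factors and without outdoors replicate 1. CATHA_29024 was called lower when only the 6 leaf pair 2 libraries were fitted and with the replicate block. In leaf pair 2 that block pairs different indoor and outdoor plants by replicate number alone. Whether the share of epidermal cells in the leaf differed between the conditions was not tested.

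How far the pathway calls depend on single libraries was examined by leaving each out. The number of pathway enzymes called lower was 6 to 11, being 6 without indoors replicate 2 and 7 without outdoors replicate 3, while 24 to 27 of the 26 to 29 enzymes in these fits had a negative log2 FC and 0 were called higher. Likewise 3 of the epidermal genes, not 6, were called without indoors replicate 2, without outdoors replicate 1 or without outdoors replicate 3. LAMT, G8H, SLS2, CS and PRX1 stayed called under all 16 alternatives that were run. Calls of SLS4, SLS1, TDC, STR, Redox2 and 16OMT were lost without at least 1 library, with adjusted p reaching 0.153, 0.0932, 0.114, 0.292, 0.0509 and 0.109. Over the 6 leave-one-out fits the genes called in leaf pair 2 numbered 219 to 319 higher and 108 to 233 lower, the lowest of both without indoors replicate 2.

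Genes of the photosynthetic apparatus were higher outdoors where they were called. Of 6 tested, 2 rose and none fell, against 6.01% of all genes, and the median log2 FC was 1.03. Rubisco activase (CATHA_702), which frees Rubisco of inhibitory sugar phosphates, had 0, 4 and 6 reads indoors and 16, 12 and 17 outdoors, 0, 8.02 and 12.7 CPM against 55.0, 26.5 and 33.6 CPM. The conditions did not overlap and the log2 FC was 1.97 ± 0.50 (edgeR adjusted p = 0.00827). RbcX (CATHA_33839), an assembly chaperone of Rubisco, had 2, 2 and 3 reads indoors and 18, 13 and 11 outdoors (2.34 ± 0.59, 0.00818). These are small counts, and the call of the activase was lost without indoors replicate 2 and that of RbcX without indoors replicate 2 or outdoors replicate 1. A photosystem II stability factor (CATHA_33958) had 35.9 to 48.3 CPM indoors and 71.2 to 92.8 outdoors and passed on adjusted p (0.0496) with a log2 FC of 0.91 ± 0.31, and a fragment of the D1 protein of photosystem II (CATHA_3939) had 1.15 ± 0.45 (0.0959).

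Among described genes outside these lists, PGR5 (CATHA_4059, proton gradient regulation 5), a protein of cyclic electron flow around photosystem I that protects it in strong light, had 222, 152 and 110 CPM indoors and 632, 497 and 391 CPM outdoors. All outdoor libraries were above all indoor ones and the log2 FC was 1.74 ± 0.28 (edgeR adjusted p = 0.00012). A mitochondrial uncoupling protein (CATHA_7653), a carrier of the inner mitochondrial membrane, went from 48.3, 8.02 and 23.2 CPM to 117, 126 and 92.9 CPM (2.49 ± 0.53, 0.00423). A glycine-rich RNA-binding protein (CATHA_9903) went from 155, 98.3 and 122 CPM to 653, 528 and 255 CPM (1.99 ± 0.36, 0.000971). All 3 genes were separated between the conditions, and in the last of them outdoors replicate 3 was well below the other two outdoor libraries.

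Among the risers were 1 gene of the water-deficit list and 1 drought-named gene outside it. The latter, drought-induced protein 1 (CATHA_22518), had 19.3, 24.1 and 10.6 CPM indoors and 155, 110.5 and 87.0 CPM outdoors (log2 FC 2.69 ± 0.39, edgeR adjusted p = 2.49e-05). Of the water-deficit list, 5 of 9 were tested and 1 rose, against 6.01% of all genes. That count was 0 without indoors replicate 2, 3 without indoors replicate 3 and 2 with DESeq2, limma voom or RLE size factors. This was an abscisic stress-ripening protein (CATHA_18761), a small hydrophilic protein of drying tissues, at 29.0, 60.2 and 125 CPM indoors and 148, 272 and 271 CPM outdoors (1.53 ± 0.37, 0.00895), a call lost without indoors replicate 2 (0.0722). A second gene of that family (CATHA_18760) had 329, 185 and 270 CPM against 546, 585 and 374 CPM, separated and just under the fold threshold at 0.99 ± 0.27 (0.0133), and was called by DESeq2, limma voom and RLE scaling. The dehydrins CATHA_13610 and CATHA_19823 had 0.66 (0.0892) and 0.68 (0.146).

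Other described genes with the largest rises, taken by a rule that asks for no overlap and for a higher-group mean of 50 CPM or more, were a putative angiotensin-converting enzyme 2 (CATHA_13515) with 3.32 ± 0.54 (edgeR adjusted p = 0.000132), a polyprenyl diphosphate synthase (CATHA_9937), which builds long isoprenoid chains, with 2.49 ± 0.33 (7.93e-06), AGD13 (CATHA_5476), a GTPase-activating protein of vesicle traffic, with 2.21 ± 0.37 (0.000171), a glutamic acid-rich protein (CATHA_16221) with 1.35 ± 0.35 (0.00936) and a subunit of the anaphase-promoting complex (CATHA_15860), a ubiquitin ligase of the cell cycle, with 1.32 ± 0.35 (0.0126). Of these, CATHA_13515 had 9.66, 8.02 and 2.11 CPM indoors and 68.7, 39.8 and 69.2 outdoors, and CATHA_9937 had 29.0, 16.0 and 27.4 against 141, 108 and 138 CPM. The outdoor libraries of CATHA_16221 were close together at 110, 115 and 125 CPM, above 30.1 to 58.0 indoors. Omitting indoors replicate 2 ended the call of CATHA_16221 (0.119), and omitting outdoors replicate 1 or indoors replicate 3 that of CATHA_15860 (up to 0.0672). A galactinol-sucrose galactosyltransferase (CATHA_35698), which makes raffinose and was the 1 riser among 3 tested sugar and starch genes (6.01% of all genes), had 38.7, 14.04 and 14.8 CPM indoors and 34.4, 53.0 and 61.3 outdoors, overlapping (1.53 ± 0.46, 0.0249), and its call was lost in 6 of 16 alternatives, to an adjusted p of 0.165.

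**Figure D3:**
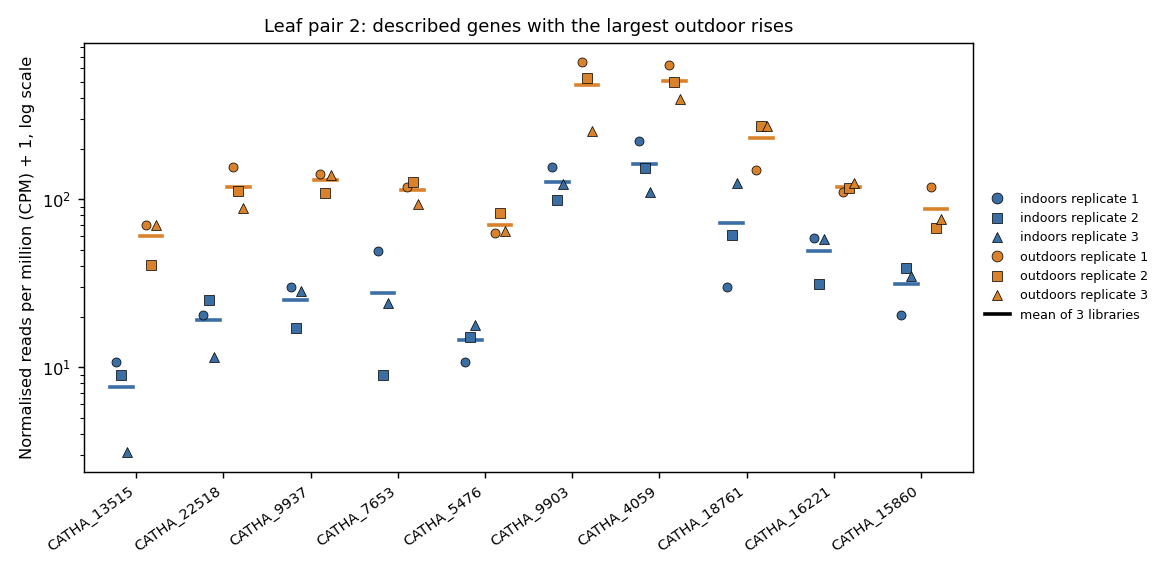
CPM + 1 (log axis) of the 10 described genes with the largest rises among those without overlap and with a mean of at least 50 CPM outdoors, in order of log2 FC, with 1 symbol per library and a bar at the mean of 3 libraries. CATHA_13515 leads at 3.32 and CATHA_15860 closes at 1.32, and every outdoor symbol lies above all indoor symbols of its gene.

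Apart from the alkaloid genes, the described genes with a mean of at least 50 CPM indoors that fell were led by a J domain protein (CATHA_15979). This co-chaperone of HSP70 stood at 77.3, 46.1 and 52.8 CPM indoors and 6.87, 2.21 and 13.8 CPM outdoors. The outdoor libraries held 2, 1 and 7 reads, and the log2 FC was -2.71 ± 0.47 (edgeR adjusted p = 0.00026). A glycine-rich cell wall structural protein (CATHA_19049) had 116, 112 and 101 CPM indoors and 24.05, 22.1 and 31.6 outdoors (-2.04 ± 0.36, 0.000265). It was 1 of 2 genes that fell among 5 tested of the cell wall list, against 4.18% of all genes, the other being a related glycine-rich protein (CATHA_22855; -1.54 ± 0.44, 0.0191), whose call was lost without indoors replicate 2 and without outdoors replicate 1 or 3, with adjusted p up to 0.219. A GDSL esterase/lipase (CATHA_34276), of a family of serine hydrolases that act on lipids, had 329, 349 and 327 CPM indoors and 103, 110.5 and 67.2 outdoors (-1.85 ± 0.33, 0.000624), the 1 call among 4 tested lipid and cuticle genes, against 10.2% of all genes called either way. Its indoor libraries agree within 12.2 CPM (SD, n = 3), far less than the difference between the conditions. Among the 200 genes with the highest mean CPM, 11 rose and 11 fell, close to the 6.01% and 4.18% of all tested genes, and the 1 with a description was a fragment of maturase K (CATHA_407), a plastid intron splicing factor, at 995, 521 and 473 CPM indoors and 258, 298 and 332 outdoors (-1.11 ± 0.29, 0.0124). That fall was smaller without indoors replicate 1, the highest library, and the call was lost there and without outdoors replicate 1, with adjusted p up to 0.0972.

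As a sum, the listed heat shock genes were high in a single outdoor plant, while some of them were higher in every outdoor library. Of 28 chaperone genes listed, 8 were tested and the only call in edgeR's test was the falling J domain protein, but the summed level of the list was 2845 CPM in outdoors replicate 1 and 411 to 570 CPM in the other 5 libraries, outdoors replicates 2 and 3 included. Of the 26 members with reads, tested or not, 13 had their highest CPM in outdoors replicate 1. The share was 18.5% among all tested genes, which are better covered, so the sets are not alike. A chloroplast small heat shock protein (CATHA_1247) had 158 reads there, 4 and 4 in the other outdoor libraries and 0, 1 and 3 indoors, so that it did not reach the count minimum for testing. A class II heat shock protein (CATHA_20705) had 178, 26 and 14 reads outdoors and 0, 8 and 3 indoors, and a small heat shock protein (CATHA_5080) had 121, 8 and 8 against 1, 3 and 6. All outdoor libraries were above all indoor ones in both, with log2 FC of 4.42 ± 1.76 and 3.84 ± 1.74 that did not pass edgeR's test (adjusted p = 0.153 and 0.207). DESeq2 called both (0.0122 and 0.0371), and edgeR with the replicate block called CATHA_20705 (log2 FC 3.18 ± 0.75, 0.0317). Without outdoors replicate 1 the log2 FC were 2.05 (0.499) and 0.84 (0.747). Listed members CATHA_29834 and CATHA_9472 were called higher with no low-count filter, and CATHA_29834 also without outdoors replicate 2. A mitochondrial chaperonin (CATHA_20654), which folds imported proteins, had a log2 FC of -0.86 ± 0.37 (edgeR adjusted p = 0.133) and was called lower by limma voom (0.0441) and without outdoors replicate 1 (-1.49, 0.00439).

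The library of the same outdoor plant from leaf pair 3 also stood above its group in these genes, by the plant code in the file headers. CATHA_20705 had 175 CPM in outdoors replicate 1 of leaf pair 3 and 14.3 and 11.4 CPM in replicates 2 and 3, and CATHA_5080 had 115 against 28.6 and 11.4 CPM. The summed chaperone list was 1363 CPM in that library and 410 to 601 CPM in the other 5 of leaf pair 3. The redox list summed to 362, 336 and 194 CPM outdoors in leaf pair 3. In leaf pair 2, 3 of its 11 members with reads were highest in outdoors replicate 1 and 5 in indoors replicate 3. Its member CATHA_29402 was called lower with no low-count filter, without indoors replicate 2 and without outdoors replicate 1 or 3. CATHA_19047 was called lower with no low-count filter. Ascorbate peroxidase (CATHA_22147), which removes hydrogen peroxide, had 175, 22.1 and 3.95 CPM outdoors and 9.66 to 16.0 indoors in leaf pair 2, and a glutathione S-transferase (CATHA_5516) had 158, 44.2 and 27.7 against 9.66 to 42.1 CPM, neither being called among 3 tested redox genes (log2 FC 1.97, edgeR adjusted p = 0.445, and 1.09, 0.406). Flavonol synthase (CATHA_21954), which makes the flavonols that absorb ultraviolet light, was highest in the same library but high in all outdoor ones, at 158, 90.6 and 87.0 CPM against 58.0, 58.2 and 23.2 indoors, with a log2 FC of 1.32 ± 0.48 (edgeR adjusted p = 0.0852). It was called with no low-count filter, when only the 6 libraries of leaf pair 2 were fitted and with the replicate block. In edgeR's test as described, 0 of the 3 tested members of the phenylpropanoid and flavonoid list and 0 of the 7 tested members of the defence list were called. Why 1 plant stood apart was not tested.

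**Figure D4:**
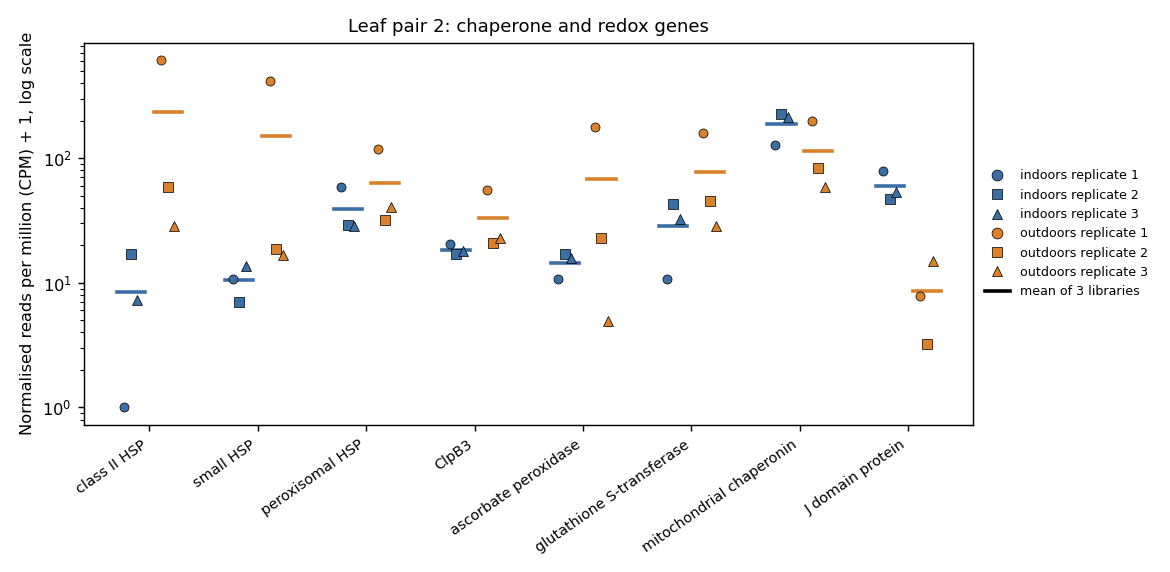
CPM + 1 (log axis) of 8 chaperone and redox genes in the 6 leaf pair 2 libraries, with 1 symbol per library and a bar at the mean of 3 libraries. Outdoors replicate 1 is the highest library for the first 6 genes from the left, such as the class II heat shock protein (HSP) at 612 CPM, and the J domain protein is the only one of the 8 that edgeR's test called.

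Most calls were of undescribed genes, since 54 of the 575 called genes and 341 of the 5641 tested genes carried a description. The largest rises of this kind were CATHA_37277 and CATHA_34455. CATHA_34455 had 0, 3 and 9 reads indoors and 175, 250 and 341 outdoors, 601, 552 and 674 CPM, a log2 FC of 5.76 ± 0.49 (edgeR adjusted p = 2.71e-07). In CATHA_37277 the outdoor libraries were spread over 1230, 468 and 188 CPM, with 0, 14.04 and 8.44 CPM indoors (5.91 ± 1.31, 0.0231), and the call was lost in 6 of 16 alternatives, with log2 FC from 4.995 to 6.48. CATHA_23342 had 4.65 ± 0.53 (8.61e-07), while CATHA_4820 and CATHA_12647 had 3 indoor reads each against 90 and 79 outdoor reads, ratios of 25.8 (95% counting interval 8.56 to 128) and 22.7 (7.48 to 112).

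On the other side, CATHA_6576 had 9, 23 and 10 reads indoors and none outdoors, at least 16.3-fold lower with the outdoor group at a floor of 3 reads. CATHA_24952 fell from 377, 373 and 312 CPM to 30.9, 46.4 and 75.1 CPM (-2.73 ± 0.32, edgeR adjusted p = 8.61e-07), and CATHA_27843, CATHA_5727 and CATHA_9689 had log2 FC of -2.87, -2.78 and -2.72. None of these 5 had an outdoor library that reached an indoor one. Of the 10 genes with most reads, 3 with no description were called, and they are named here for their abundance after their values were seen. CATHA_28617 rose from 2455, 3467 and 3668 CPM to 7871, 14744 and 10360 CPM (1.78 ± 0.26), and CATHA_13250 and CATHA_1729 fell, from 12379 to 18143 CPM to 4819 to 6407 CPM and from 8775 to 10821 CPM to 2396 to 4018 CPM (-1.49 ± 0.23 and -1.49 ± 0.25). CATHA_38647 alone held 11.5% to 18.6% of the reads indoors and 18.4% to 23.6% outdoors, and it was not called (0.59 ± 0.27, 0.161).

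Leaf pair 3, sequenced in the same way from the same plants, had 367 genes called higher (6.51%) and 376 lower (6.67%). Of the 339 genes higher in leaf pair 2, 210 were also called higher in leaf pair 3, which is 61.9% of the former and 57.2% of the latter. Of the 236 lower genes 146 were shared, 61.9% of the leaf pair 2 calls and 38.8% of those of leaf pair 3. None was called in opposite directions. Whether the outdoor change differed between the leaf pairs was tested by an interaction term, and edgeR called 0 genes (0%), with 238 at an unadjusted p under 0.05, 4.22% of those tested, and a smallest adjusted p of 0.141. DESeq2 and limma voom also called 0, with 181 and 271 at an unadjusted p under 0.05.

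Because both leaf pairs came from the same plants, the interaction was also fitted with the plant as a block, and 9 genes were then called, CS among them. CS had 425, 433 and 338 CPM indoors and 117, 119 and 79.1 CPM outdoors in leaf pair 2. In leaf pair 3 it had 371, 177 and 91.1 CPM indoors and 4.26, 11.9 and 5.72 CPM outdoors, the latter from 2, 5 and 3 reads. Its log2 FC was -1.92 ± 0.37 in leaf pair 2 and -4.85 ± 0.52 in leaf pair 3, a difference of 2.92 without the block (edgeR adjusted p = 0.46) and 2.68 ± 0.50 with it (0.0124). The other 8 were CATHA_15347, CATHA_9741, CATHA_13614, CATHA_5698, CATHA_31767, CATHA_38337, CATHA_9308 and a WD repeat protein gene (CATHA_6232), with blocked differences of 1.39 to 2.55, that is, a change more positive in leaf pair 2 in all 9. CATHA_15347 had 13, 46 and 113 reads indoors and 144, 288 and 533 outdoors in leaf pair 2, against 182, 166 and 396 and 248, 275 and 579 in leaf pair 3. The remaining described genes with the smallest unblocked interaction p, CATHA_34276, SLS1, CATHA_19049 and the NDH subunit CATHA_35300, were not called with the block, although CATHA_34276 was called with no low-count filter (difference 2.34, adjusted p = 0.0194), as was CS (2.95, 0.00117).

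Leaf pairs 1 and 4 were sequenced as Illumina reads, so calls are set side by side and no test crosses the platforms. In leaf pair 1, 713 of 17299 genes were higher (4.12%) and 424 lower (2.45%), and in leaf pair 4, 995 were higher (5.75%) and 1975 lower (11.4%). Of the 339 genes that rose in leaf pair 2, 190 (56.0%) were also called higher in leaf pair 1 and 132 (38.9%) in leaf pair 4, or 62.3% and 52.0% of those leaf pairs' rising genes that were tested in leaf pair 2. Of the 236 that fell, 56 (23.7%) were called lower in leaf pair 1 and 130 (55.1%) in leaf pair 4. That is 56.0% and 25.3% of those leaf pairs' falling genes that were tested in leaf pair 2, or 13.2% and 6.58% of all their falling genes. None was called the other way.

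Along the shoot, the outdoor change of the alkaloid genes was smallest in the youngest leaves, a difference that crosses the platforms and was not tested. The median log2 FC of the 26 pathway enzymes was -0.36 in leaf pair 1, -0.97 in leaf pair 2, -1.31 in leaf pair 3 and -0.998 in leaf pair 4, with 1, 11, 16 and 13 of them called lower. CS had -0.36 ± 0.47 in leaf pair 1 and -4.80 ± 0.69 in leaf pair 4, TDC -0.36 and -3.11, LAMT -0.43 and -2.29, and SLS2 -0.69 and -3.41. PRX1 was the 1 enzyme called lower in all 4 leaf pairs, at -1.53, -2.03, -1.81 and -1.70. G8H was called in leaf pair 2 alone, at -0.39, -1.33, -0.70 and -0.36 from leaf pair 1 to 4. Between leaf pairs 2 and 3, the fall was the larger in leaf pair 3 for 21 of the 26 enzymes, with 5 interactions at an unadjusted p under 0.05 and none past adjustment without the block.

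**Figure D5:**
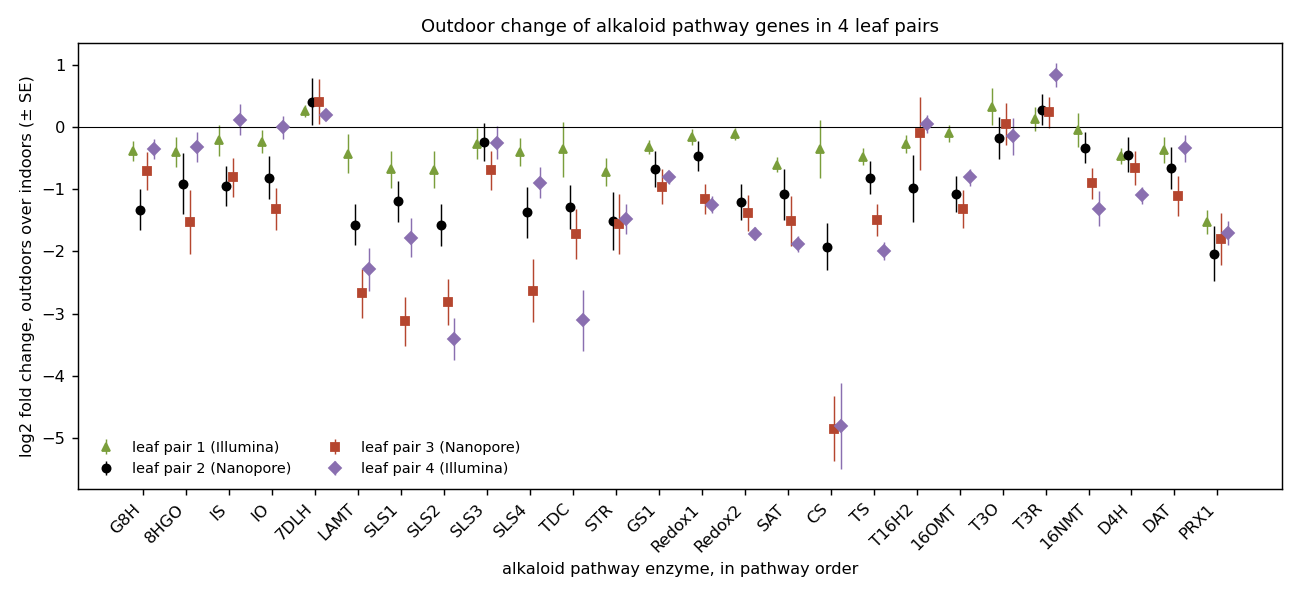
Outdoor log2 FC (± SE, 3 against 3 libraries) of the 26 alkaloid pathway enzymes tested in leaf pair 2, in pathway order, for leaf pairs 1 and 4 (Illumina) and 2 and 3 (Nanopore). CS goes from -0.36 in leaf pair 1 to -4.80 in leaf pair 4, while PRX1 lies between -2.03 and -1.53 throughout.

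Genes that rose kept their direction along the shoot in part. PGR5 (CATHA_4059) had log2 FC of 1.68, 1.74, 1.65 and 0.92 in leaf pairs 1 to 4 and was called in the first 3, and drought-induced protein 1 (CATHA_22518) had 1.55, 2.69, 2.55 and 1.61, called in all 4. CATHA_34455 had 6.13, 5.76, 5.64 and 3.74. Rubisco activase (CATHA_702) was called in leaf pairs 1 and 2, with 1.67, 1.97, 0.76 and 0.53. The glutamic acid-rich protein (CATHA_16221) was called in leaf pair 2 alone, with -0.18, 1.35, 0.31 and 0.51. Its interaction with leaf pair 3 was not past the threshold.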

How the data were processed

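The authors mapped Nanopore cDNA reads of leaf pairs 2 and 3 to C. roseus transcripts with minimap2, quantified them with Salmon and deposited the estimated counts per gene, and they trimmed Illumina reads of leaf pairs 1 and 4 with Trimmomatic 0.39 and deposited featureCounts 2.0.1 read counts per gene. The submitters' processing notes also name FastQC 0.19.11 and Salmon 1.4.0. Genes keep the IDs of the files, which say nothing of strand, so reads of overlapping or near-identical genes may be shared.

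Estimated counts were rounded, and genes were kept by edgeR's filterByExpr over the 12 libraries of leaf pairs 2 and 3, fitted together with 1 term per group so that all share a spread. The tests were edgeR 4.0.16 quasi-likelihood F-tests (R 4.3.3, TMM scaling) with Benjamini-Hochberg adjustment over all tested genes. Calls needed an adjusted p no greater than 0.05 together with a log2 FC of 1 or more in size. SE is the absolute log2 FC over the square root of F. CPM are not corrected for gene length, so levels were not ranked between genes. Leaf pairs 1 and 4 were fitted alike on their own counts. The test was also tried on simulated counts, made with the gene levels and library depths of these data and the same spread for every gene.

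The plant codes in the file headers pair leaf pairs 2 and 3, whose same-numbered libraries had deviations correlated at 0.0655 to 0.209 indoors and 0.187 to 0.456 outdoors. Alternatives were DESeq2 1.42.0, limma 3.58.1 voom, other scalings and filters, leaving out each library, and a replicate block. The block was the replicate number within leaf pair 2 and the plant in the interaction.

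Named were, for the MIA lists, called genes and the 3 best covered, then the 10 largest described and 5 largest undescribed changes per direction among separated genes with a mean of at least 50 CPM, described calls among the 200 most abundant genes, up to 5 called members of every other list, and the 5 described genes of smallest interaction p. Descriptions come from the study's tables, cover 1297 genes and favour idioblast genes. Members and lists were chosen with earlier results of these data known. All other libraries of the series were not used here. Intervals and floors cover counting error only. At the depth of the shallowest library, genes under about 29.0 CPM had fewer than 3 reads there.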

Additional observations from a re-analysis of the deposited data

How the results depend on the processing

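In leaf pair 2 the 339 higher and 236 lower genes became 265 and 126 with DESeq2, 314 and 208 with limma voom, 356 and 230 with RLE size factors, 305 and 278 with upper quartile factors, 395 and 233 with no low-count filter, 294 and 199 with a stricter one, 339 and 235 without rounding, and 330 and 240 when only the 6 libraries were fitted. DESeq2 shared 238 of the higher and 118 of the lower genes. Leaving out 1 library gave 219 to 319 higher and 108 to 233 lower genes. Of 39 named genes that were called, 24 stayed called in every alternative run and 15 lost the call in at least 1. Of the 16 that were not called, TS alone gained one, with library totals and without indoors replicate 3. None of the named calls changed sign, but the uncalled VAS, PIF1 and ZCT3 had either sign. SLS4, STR and CATHA_22855 were not called by DESeq2. The cause of these changes was not tested.

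Indoor and outdoor plants share only a replicate number, with deviations correlated at 0.106, 0.12996 and 0.0338. With the replicate block, 348 genes were higher and 266 lower, and STR was not called (adjusted p = 0.0762). For the interaction of leaf pairs 2 and 3 the block gave 9 genes, and the fit with no low-count filter gave 5. Calls shared with leaf pair 1 rose from 246 to 462, and with leaf pair 4 from 262 to 516, when no minimum fold was asked, since more genes then count as called.

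The change of low genes, most transcription factors and strictosidine glucosidase among them, was not detectable at the depth of these libraries. Indoors replicate 1 was the shallowest of them.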

Other observations

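Further described genes called in leaf pair 2 fall under no list, and those given here were chosen after their values were seen. In the chloroplast, cytochrome f (CATHA_8370), a subunit of the complex that links both photosystems, had 193, 287 and 266 CPM indoors and 529, 585 and 492 outdoors. All outdoor libraries were higher, by a log2 FC of 1.07 ± 0.24 (edgeR's quasi-likelihood test, adjusted p = 0.00298), with -0.24, 0.38 and -0.88 in leaf pairs 1, 3 and 4. A carbonic anhydrase (CATHA_26688), which interconverts carbon dioxide and bicarbonate, had 38.7, 16.0 and 10.6 CPM indoors and 103, 83.9 and 35.6 outdoors, the lowest outdoor library lying under the highest indoor one (2.11 ± 0.51, edgeR adjusted p = 0.00834). A plastid delta-15 desaturase (CATHA_29912), which makes trienoic fatty acids, rose by 1.18 ± 0.33 on the log2 scale (0.0165), while an acyl carrier protein (CATHA_11493), which holds the growing fatty acid, fell from 348, 411 and 350 CPM to 107, 199 and 166 CPM (-1.22 ± 0.28, 0.00356). A 4-coumarate-CoA ligase (CATHA_32349) of phenylpropanoid synthesis, which was not in the phenylpropanoid list, rose by 1.57 ± 0.49 (0.0328), with 0, 10.03 and 14.8 CPM indoors and 41.2, 26.5 and 33.6 outdoors.

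Low indoors were 2 glycosyltransferases (CATHA_15282 and CATHA_22017), with 2 indoor reads each against 36 and 31 outdoor reads, ratios of 15.5 (95% counting interval 3.99 to 133) and 13.3 (3.40 to 115), a chloride channel-like protein (CATHA_19444) with 2 against 40 reads (17.2, 4.47 to 147) and a Ste24 endopeptidase (CATHA_19252) with 3 against 45 reads (12.9, 4.15 to 65.0). Among the genes that fell were a TCP family gene (CATHA_26871), of a class of growth regulators, at 48.3, 28.1 and 27.4 CPM indoors and 3.44, 6.63 and 9.88 outdoors (-2.07 ± 0.53, edgeR adjusted p = 0.00983), and a proton-dependent oligopeptide transporter (CATHA_16487) at 38.7, 38.1 and 35.9 CPM against 6.87, 6.63 and 11.9 CPM (-2.05 ± 0.50, 0.00601). Both were separated between the conditions.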
